A study of Homo sapiens with 3 samples.

Results

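The cytosolic ribosomal protein genes were followed in human melanoma cells that were stably transfected to silence melanotransferrin (gene symbol MELTF, MTf in the labels). Their probe sets were taken as every probe set whose platform annotation names 1 of 48 listed ribosomal protein genes. This gave 117 of the 54613 probe sets that are not array controls, for 46 of the 21357 genes named in the annotation; RPL15 and RPLP0 were not analysed here. SK-Mel-28 is an established melanoma cell line. RNA from SK-Mel-28 cells carrying the MTf siRNA insert in the vector pSilencer 3.1-H1 neo was hybridised to 2 Affymetrix Human Genome U133 Plus 2.0 arrays, labelled MTf/B1 and MTf/B2 and called siRNA arrays 1 and 2 here. RNA from cells with a scrambled hairpin, reported in the labels with the same vector, was hybridised to 1 array. Whether the siRNA arrays hold RNA of different clones or culture dishes is not stated in the labels, so every p-value here reflects array-to-array spread that may be technical. The comparison asks whether transcripts of the ribosome itself differ when MELTF is targeted.

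Ribosomal proteins assemble with ribosomal RNA into a small subunit, which decodes the messenger RNA, and a large subunit, which joins amino acids and carries a stalk of acidic P proteins that recruits elongation factors. Their messenger RNAs are among the most abundant of a growing cell. In vertebrates most of them begin with a C followed by a run of pyrimidines, the terminal oligopyrimidine tract (TOP), through which growth signals control their translation as a group. Several of the proteins also act away from the ribosome or are mutated in inherited anaemia.

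The annotated starts were examined for this tract because it is the sequence feature the genes are best known to share, and the choice of members did not use it. The windows that follow run from 15 bases before the start to 15 bases from the start onwards, from RefSeq on GRCh38.p14, with the C and the pyrimidines that follow it in capitals where at least 4 follow. They are the genes with low, high and middle differences in the comparison, the stalk genes and 1 member without the run, all written on the gene's own strand.
RPL28 (chr19:55385917-55385946, plus strand): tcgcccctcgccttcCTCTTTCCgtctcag
RPS19 (chr19:41860240-41860269, plus strand): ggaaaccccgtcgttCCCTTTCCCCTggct
RPL34 (chr4:108620561-108620590, plus strand): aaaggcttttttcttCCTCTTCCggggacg
RPS25 (chr11:119018329-119018358, minus strand): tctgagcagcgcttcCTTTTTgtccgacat
RPL29 (chr3:51995881-51995910, minus strand): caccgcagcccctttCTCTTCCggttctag
RPS6 (chr9:19380222-19380251, minus strand): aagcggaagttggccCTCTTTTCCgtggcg
RPLP1 (chr15:69452803-69452832, plus strand): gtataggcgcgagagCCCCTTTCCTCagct
RPLP2 (chr11:809952-809981, plus strand): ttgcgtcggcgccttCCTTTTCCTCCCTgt
RPS15 (chr19:1438381-1438410, plus strand): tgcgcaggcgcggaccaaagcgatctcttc
Of the 40 members with a promoter in the table, 29 (72.5%) had the run at an annotated start, against 1404 of 27305 genes (5.14%) over all promoters; counted by start, it was 29 of 51 (56.9%) against 4.07%. RPS19 and RPL34 each have a further annotated start without the run. The search was for the strand of transcription and for the start position itself, and a match is a description of letters only.

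The arrays had been scaled to nearly the same trimmed mean before deposit, with median signals of 174.3 and 199.5 on siRNA arrays 1 and 2 and 160.6 on the scrambled array. The brightest MELTF probe set read 18968 and 18973.9 on the siRNA arrays against 32608 on the scrambled array (limma adjusted p = 0.0699), and the other 3 MELTF probe sets, of which 2 were higher, had adjusted p between 0.318 and 0.640. All 7 melanocyte markers with a probe set here passed the filter on dim probe sets, and their summed signal was 242062 and 265631 on the siRNA arrays against 289528 on the scrambled array. The lower sum rested on TYRP1, a melanin synthesis enzyme, which read 5022 and 12370.0 on the siRNA arrays against 53204 on the scrambled array; without it the sum was 237039 and 253261 against 236324. TYR, the first enzyme of melanin synthesis, read 35193 and 37555 on the siRNA arrays against 19988 on the scrambled array. Of the markers of other cells, 2 of 5 epithelial, 3 of 5 fibroblast, 1 of 4 leukocyte and 1 of 4 endothelial genes passed the filter, while EPCAM, CDH1, PTPRC, CD14 and CDH5 read 94.7 or less on every array. The summed fibroblast signal was 5621 and 5930 on the siRNA arrays against 1678 on the scrambled array, with LUM at 4850.0 and 4841 against 598.6. Without LUM it was 771 and 1089 against 1079.8, with COL1A1 at 487.9 and 565.1 against 671.9. The epithelial sums were 2831 and 2552 against 1865, or 348 and 403.5 against 557.2 without KRT18. The leukocyte sums were 657.7 and 575.9 against 1404, and the endothelial sums were 409.2 and 703.5 against 489.1. The GAPDH 3' to 5' ratio was 1.01 on both siRNA arrays and 1.03 on the scrambled array. Both probe sets behind it read 58581 or more on every array, where signals could have saturated, so the ratio may not show RNA quality. Ribosomal RNA control probe sets (6 on the array) read a median of 3.76 times the scrambled signal on siRNA array 1, and 1.06 times on siRNA array 2. The ratios ran from 0.81 to 4.91 on siRNA array 1 and from 0.84 to 1.35 on siRNA array 2. What part these markers and controls have in the ribosomal protein signals was not tested.

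No ribosomal protein probe set passed the test, and the median of the group lay slightly below 0 as deposited. Signals were compared as log2(signal + 47.4), and 103 of the 117 probe sets passed the filter on dim probe sets. By limma with Benjamini-Hochberg adjustment at 0.05, 0 of the 103 were called, against 2.09% of all 27306 probe sets tested (1.19% higher and 0.905% lower), and 7 had an unadjusted p under 0.05, where 20.2% of all probe sets did. The smallest adjusted p among them was 0.0700. The median log2 difference, siRNA minus scrambled, was -0.14 over the 103 probe sets (siRNA array 1 alone gave -0.19, and siRNA array 2 gave -0.078), compared with 0.11 over all probe sets tested. With quantile normalization it was -0.035, and with arrays centred on their medians, which moved the median of all probe sets by -0.17, it was -0.31. Without the brightest 1% of signals, which leaves 26 member probe sets, it was above 0, at 0.059. Signals were below the scrambled array on both siRNA arrays for 69 of the 103 and above it on both for 20. Over all 27306 probe sets tested, the counts were 8437 below and 12674 above. Both siRNA arrays are set against the same 1 scrambled array, so their agreement in direction is not independent, here and in later counts.

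Counted by gene, with each gene represented by its brightest probe set, all 46 members were in the upper part of the signal scale, with mean signals between 27042 and 79181. By limma 0 of the 46 were called, against 2.59% of 13595 genes (1.42% higher and 1.17% lower). An unadjusted p under 0.05 was found for 1 of the 46, against 3107 of all 13595 genes. The median difference was -0.16 over the member genes, against 0.083 over all genes. Of the 46 differences 38 were below 0 (82.6%), against 43.4% of all genes. With arrays centred it was 45 of 46, against 56.8% of all genes, and with quantile normalization 29 of 46, against 48.9%. Most of all genes are dimmer than the members, which were chosen with earlier results of these data known. Among probe sets with mean signals above 50000, 51 of 55 members and 100 of 123 others were below 0. Those counts were 55 and 117 with arrays centred, and 40 and 53 with quantile normalization. The others are all non-member probe sets, and other ribosomal proteins and translation factors were not taken out of them. In 37 member genes both siRNA arrays read below the scrambled array, against 4575 of all 13595 genes. In 4 members (RPS25, RPL23, RPL29 and RPL6) both read above it, against 6233 of all genes. In 36 member genes siRNA array 2 lay between siRNA array 1, which was lowest, and the scrambled array. Every difference of these members' brightest probe sets lay within the range of -0.37 to 0.35, and their standard errors had a median of 0.16. An interval around a typical one therefore spans both small decreases and small increases, and a p that misses the threshold does not show equal levels. In bulk RNA scaled to a common mean, less RNA per cell for the whole group cannot be told apart from more RNA of other genes.

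**Figure D1:**
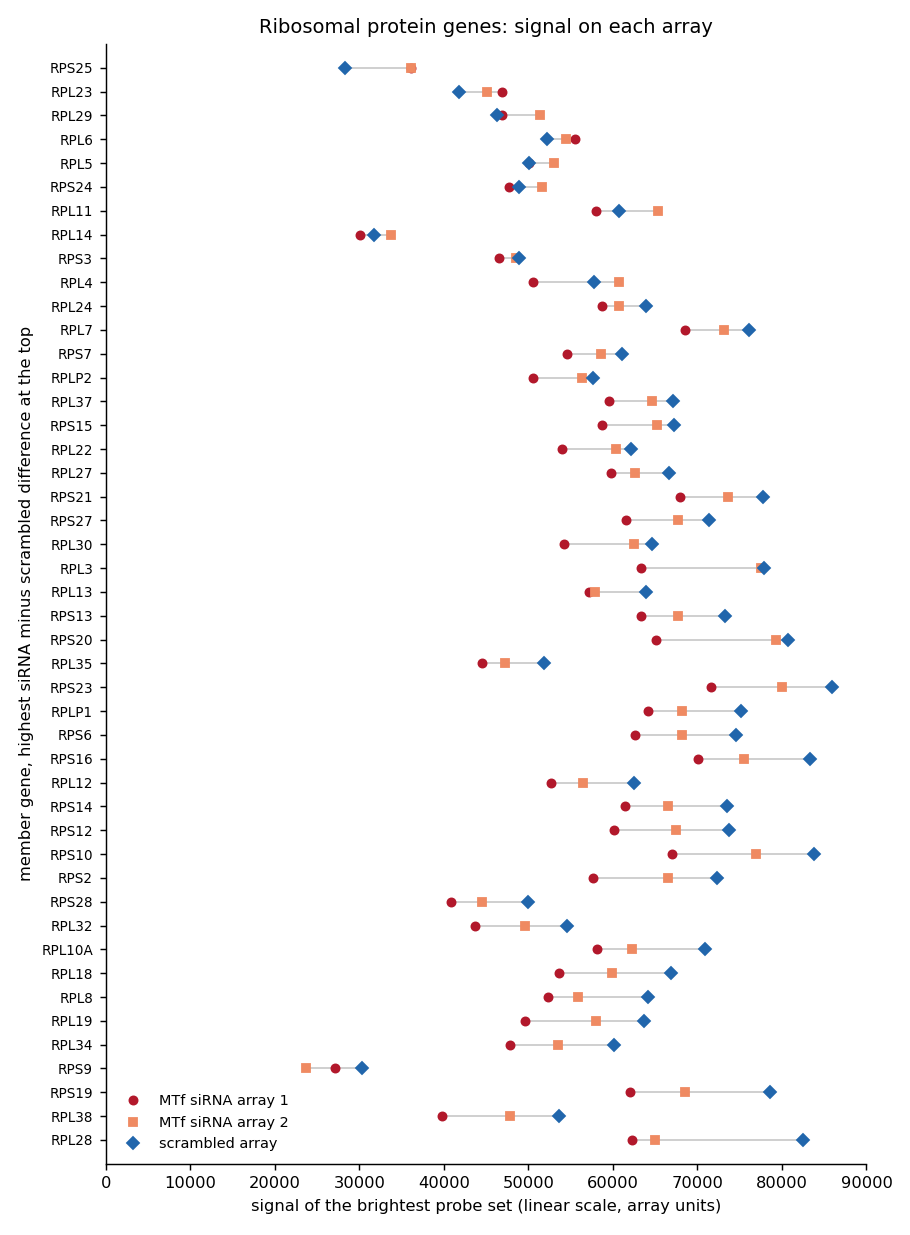
Signal of the brightest probe set of each of the 46 member genes (horizontal axis, linear array units) on siRNA array 1, siRNA array 2 and the scrambled array, with genes ordered by their siRNA minus scrambled difference from RPS25 at the top to RPL28 at the bottom. In most genes both siRNA arrays lie left of the scrambled array, with siRNA array 1 furthest left; signals of different probe sets are not comparable as levels of different genes.

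Among large-subunit proteins, 25 genes were measured, with a median difference of -0.15. RPL28, a large-subunit protein with no bacterial counterpart, had the lowest difference when each gene is taken by its brightest probe set. Its brightest probe set read 62229.9 and 65031 on siRNA arrays 1 and 2 against 82505 on the scrambled array. Both siRNA arrays were lower, at 75.4% and 78.8% of the scrambled signal (log2 difference -0.37 ± 0.15, SE; 95% interval -0.73 to -0.024; limma adjusted p = 0.222). A dimmer RPL28 probe set read 1380.4 and 1595.9 against 1394.4 on the scrambled array (0.087 ± 0.26; adjusted p = 0.896). The annotation of both RPL28 probe sets also names the microRNA MIR6805. RPL38, which in mice is needed for translation of a subset of Hox transcripts, read 39823 and 47845 against 53583 on the scrambled array (-0.30 ± 0.18; adjusted p = 0.405). RPL34 read 47803 and 53456 against 60140.1 on the scrambled array (-0.25 ± 0.16; adjusted p = 0.439). In both genes the siRNA arrays were lower than the scrambled array. A pair of dimmer RPL38 probe sets had differences of the opposite sign, 0.22 and 0.33 (adjusted p = 0.688 and 0.502).

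The large-subunit genes at the other end of the order were RPL23, RPL29, RPL6 and RPL5. RPL23, which can bind and inhibit the p53 ligase MDM2, read 46909 and 45104 against 41776 on the scrambled array (0.14 ± 0.16; adjusted p = 0.683). RPL29, which is also known as a heparin-binding protein, read 46829 and 51426 against 46295 on the scrambled array. RPL6 read 55530.2 and 54412 against 52252 on the scrambled array. The siRNA arrays were higher in each of these, by amounts smaller than the standard error. Their values turned negative with arrays centred, at -0.031 for RPL23, -0.086 for RPL29 and -0.097 for RPL6.

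RPL5 and RPL11 form a particle with the 5S ribosomal RNA that inhibits MDM2 when ribosome assembly fails. RPL5 read 50132 and 52997 against 50136 on the scrambled array (0.040 ± 0.16; adjusted p = 0.922, and -0.13 with arrays centred). RPL11 read 58044 and 65289 against 60762 on the scrambled array (0.019 ± 0.16; adjusted p = 0.965, and -0.15 with arrays centred). For RPL11 the siRNA arrays lay on either side of the scrambled array, and for RPL5 siRNA array 1 was level with it. The 95% intervals were -0.33 to 0.41 for RPL5 and -0.36 to 0.39 for RPL11. RPL22, an RNA-binding protein that is dispensable for most translation in mice, read 53975 and 60377 against 62129.5 on the scrambled array in its brightest probe set (-0.12 ± 0.16; adjusted p = 0.731), lower on both siRNA arrays.

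Among small-subunit proteins, 19 genes were measured, with a median difference of -0.18. Both siRNA arrays read below the scrambled array in 17 of them and above it in 1, RPS25. Over all 13595 genes the counts were 4575 and 6233. RPS25, needed for initiation at some viral internal ribosome entry sites, was the member with the highest difference. It read 36065 and 36178 on siRNA arrays 1 and 2 against 28336 on the scrambled array. The siRNA arrays were nearly equal, at 127.3% and 127.7% of the scrambled signal (0.35 ± 0.16, SE; 95% interval -0.034 to 0.73; limma adjusted p = 0.289). It has 1 probe set here, so that no second probe set of the gene could be set beside it.

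RPS19, the gene most often mutated in Diamond-Blackfan anaemia, read 61987 and 68587 against 78623 on the scrambled array (-0.27 ± 0.16; adjusted p = 0.384). A second bright RPS19 probe set read 58633 and 63644 against 76088 on the scrambled array (adjusted p = 0.306). A dim one read 398.8 and 455.5 against 778.4 on the scrambled array (adjusted p = 0.215). All 3 were lower on both siRNA arrays. RPS9, part of the small-subunit body, read 27130.4 and 23698 against 30297 on the scrambled array, and its second probe set read 11299.7 and 11209 against 15298. Both were lower on both siRNA arrays (adjusted p = 0.477 and 0.245).

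RPS6, the substrate of S6 kinase downstream of mTOR, was measured by 3 bright probe sets, of which the brightest read 62589 and 68154 against 74522 on the scrambled array (-0.19 ± 0.15; adjusted p = 0.543). RPS14, lost in the 5q- syndrome, read 61409.6 and 66504 against 73469 on the scrambled array (-0.20 ± 0.15; adjusted p = 0.516). RPS27 read 61559 and 67746 against 71323 on the scrambled array (-0.14 ± 0.16; adjusted p = 0.665). In these genes the siRNA arrays were the lower ones, with siRNA array 1 below siRNA array 2. RPS3, which also takes part in DNA repair, read 46487 and 48587 against 48862 on the scrambled array (-0.040 ± 0.16; adjusted p = 0.922, and 0.085 with quantile normalization). RPS7, another MDM2-binding protein, read 54632 and 58624 against 61030.0 on the scrambled array (-0.11 ± 0.15; adjusted p = 0.754, and 0.0024 with quantile normalization). For RPS3 and RPS7 the direction therefore depends on the scaling.

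The acidic stalk proteins RPLP1 and RPLP2 bind the large subunit through RPLP0. RPLP1 read 64103 and 68156 on siRNA arrays 1 and 2 against 75109 on the scrambled array (-0.18 ± 0.15, SE; limma adjusted p = 0.549). RPLP2 read 50556 and 56373 against 57709.8 on the scrambled array (-0.11 ± 0.16; adjusted p = 0.756, and 0.0089 with quantile normalization). Both genes were lower on both siRNA arrays as deposited. A dimmer RPLP2 probe set went the other way, with 650.9 and 358.5 against 254.0 on the scrambled array (0.82 ± 0.42; adjusted p = 0.330).

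The ribosomal protein probe sets lie at the top of the signal scale, where the arrays could have saturated. Of the 117, 77 on siRNA array 1, 76 on siRNA array 2 and 77 on the scrambled array were in the brightest 1% of all probe sets. The brightest member probe set, of RPS23, reached 71659 and 79964 on the siRNA arrays and 85919 on the scrambled array, against a highest signal of any probe set of 82443, 87012 and 91907. The brightest spiked control RNA, of phage cre, read 42489.7 and 49392 on the siRNA arrays and 46256 on the scrambled array, and 66, 60 and 67 member probe sets were brighter than it. For these no spiked control of known amount covers the signal range, and no saturation flags were used here.

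The upper end of the scale itself differed between the arrays. The 99.9th percentile of signals was 60987 and 68394 on siRNA arrays 1 and 2 against 70598 on the scrambled array. Among probe sets with mean signals above 50000, the 55 members had a median difference of -0.17 and the 123 others of -0.10. These others are all non-member probe sets, from which other ribosomal proteins and translation factors were not taken out. On siRNA array 1 the medians were -0.24 for members and -0.18 for others, and 53 of the 55 members (96.4%) and 111 of the 123 others (90.2%) were below the scrambled array. On siRNA array 2 the medians were -0.11 and -0.028, with 49 of the 55 members (89.1%) and 78 of the 123 others (63.4%) below it. Between 30000 and 50000 the order was turned, with medians of -0.044 for 21 members and -0.092 for 204 others. Without the brightest 1% of signals the median over member genes was 0.031. That setting leaves 26 member probe sets, so genes without one drop out. The genes that remain are taken by other, dimmer probe sets, and 0.031 is not a value for the same 46 probe sets. With quantile normalization, which gives every array the same upper end, the medians above 50000 were -0.039 for members and 0.016 for others. Of 80 member probe sets with mean signals above 10000, 0 passed the test, and 61 were lower and 10 higher on both siRNA arrays. Over all 27306 probe sets tested, mostly dimmer ones, 8437 were lower and 12674 higher on both. The same count for other probe sets above 10000 is not given here.

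**Figure D2:**
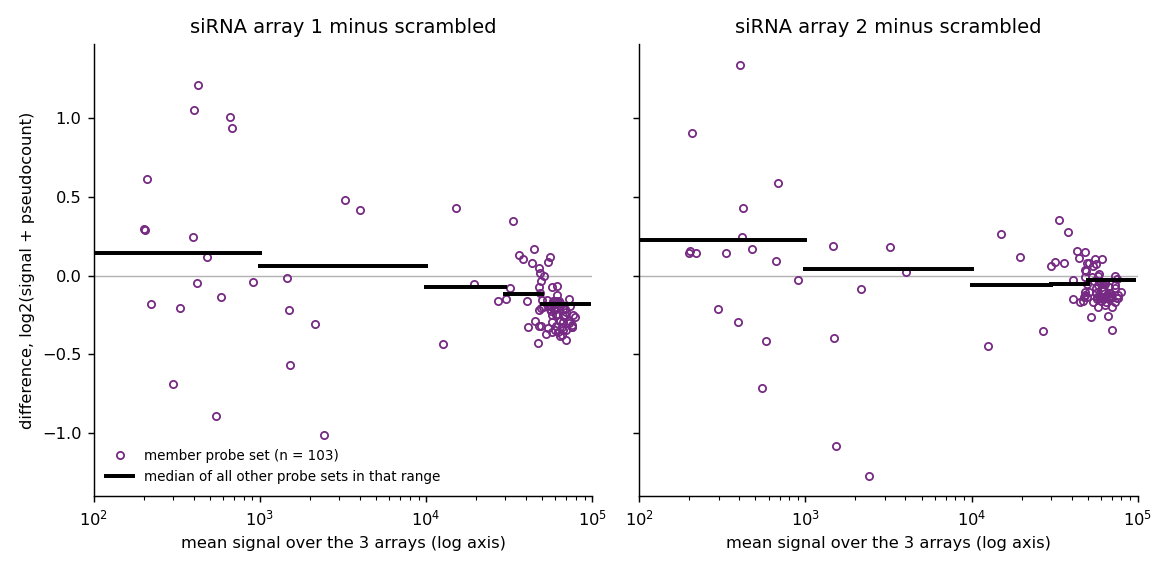
Difference from the scrambled array (vertical axis, log2 scale) on siRNA array 1 (left) and siRNA array 2 (right) for the 103 member probe sets past the dim filter, against their mean signal (log axis), with black lines for the median of all other probe sets in 5 signal ranges. Both the lines and the dense cluster of members above 50000 lie lower on siRNA array 1 (medians of -0.18 and -0.24) than on siRNA array 2 (-0.028 and -0.11).

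Scaling decided whether any member was called. With arrays centred on their medians, 10 member probe sets of 6 genes passed, all lower (9.71%), against 3.42% of all probe sets called lower and 2.18% called higher in that fit. They were 3 probe sets of RPS10, 2 of RPS19, 2 of RPL3 and 1 each of RPL12, RPL28 and RPL37, of which 9 had mean signals above 50000. The lowest adjusted p was 0.00960, for RPL28 (-0.54). In that setting 117 of the 123 other probe sets above 50000 were also below 0, and the share of them called is not given here. The medians were taken over all 54613 probe sets, before the dim filter. The prior from eBayes was 17.9 degrees of freedom with arrays centred, against 6.36 as deposited. With quantile normalization 0 member probe sets passed.

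Different probe sets of a gene gave different answers in several cases. In 19 genes with at least 2 probe sets above 10000, their differences spanned a median of 0.11 and at most 0.49, which was in RPL22. In 10 of the 19 the brightest of them had a lower difference than the dimmest, with a median of -0.047 for brightest minus dimmest. RPL22 had 3 probe sets between 51423 and 62129.5 on the 3 arrays with differences of -0.15 to -0.089 and another at 0.031, whereas the dimmest read 17193 and 15327 on the siRNA arrays against 12752 on the scrambled array (0.35 ± 0.19; limma adjusted p = 0.361). Whether such spreads come from splice forms, related sequences or the arrays was not tested.

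The widest disagreements were in RPL37, RPL13 and RPL23, each through dim probe sets. RPL37, a zinc-binding large-subunit protein, read 59566 and 64643 on the siRNA arrays against 67115 on the scrambled array in its brightest probe set (-0.11 ± 0.15; adjusted p = 0.743, and 0.0032 with quantile normalization). Its second brightest probe set read 1872 and 1559 against 3823 on the scrambled array (-1.14 ± 0.25, SE; adjusted p = 0.0700). The third read 1427 and 988.4 against 2141 on the scrambled array (-0.82 ± 0.30; adjusted p = 0.189). Both of these were lower on both siRNA arrays by more than any bright member probe set, and the second brightest was the 1 member probe set at least 2-fold lower on both siRNA arrays, against 1.83% of all probe sets. The dimmest read 225.5 and 198.4 against 175.1.

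RPL23 had 1 bright probe set, described among the large-subunit genes, and a dim one, which read 450.8 and 559.8 on the siRNA arrays against 192.6 on the scrambled array (1.20 ± 0.36, SE; limma adjusted p = 0.124). It was the 1 member probe set at least 2-fold higher on both siRNA arrays, against 3.93% of all probe sets. The annotation of both RPL23 probe sets also names SNORA21, a small nucleolar RNA, so that the signal cannot be given to RPL23 alone. RPL13, a large-subunit protein, had 8 probe sets. Its 5 bright ones differed by -0.17 to 0.12. Among the 3 dim ones, 1 read 899.0 and 693.0 on the siRNA arrays against 446.3 on the scrambled array and another 218.6 and 279.1 against 126.7, both higher on both siRNA arrays. The last read 211.7 and 313.2 against 369.6 on the scrambled array and was lower, with adjusted p of 0.235, 0.379 and 0.588. All RPL13 probe sets also name SNORD68.

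**Figure D3:**
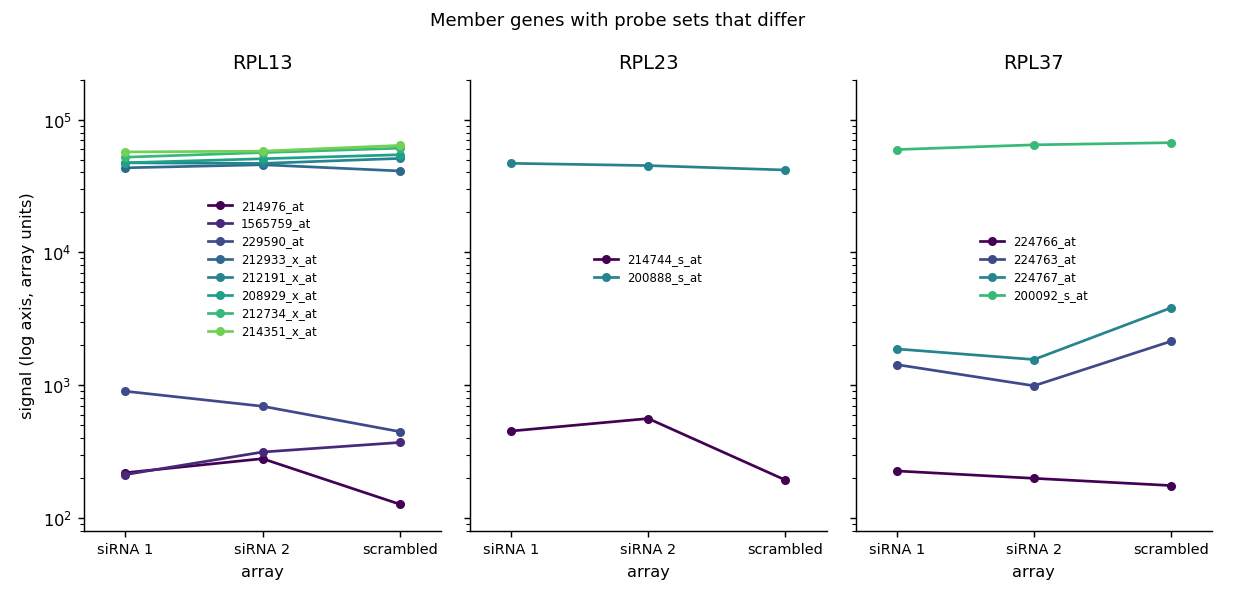
Signal (log axis, array units) of every RPL13, RPL23 and RPL37 probe set past the dim filter on siRNA array 1, siRNA array 2 and the scrambled array, with 1 line per probe set. The bright probe sets run almost flat, while dim ones differ between the siRNA arrays and the scrambled array in both directions, as in the second brightest of RPL37 (1872 and 1559 against 3823) and the dim one of RPL23 (450.8 and 559.8 against 192.6).

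Of the 117 probe sets, 33 name a further gene besides the member. In all but 1 case the further names were small nucleolar RNAs or microRNAs, and the exception was NBEAL1 beside RPL12. No pseudogene was named. By identifier, 45 end in _x_at and 34 in _s_at, the suffixes given to probe sets that can match related sequences, which matters for ribosomal proteins because of their many processed pseudogenes. Above 10000 the median difference was -0.15 for 40 probe sets ending in _x_at, -0.14 for 28 ending in _s_at and -0.17 for 12 with neither suffix. The 14 probe sets that did not pass the filter read between 4.6 and 170.9 and belong to 13 genes that each also had a bright probe set. The members with a pyrimidine run at a start (28 measured) had a median difference of -0.18 and those without (10 measured) of -0.14.

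Paralogs of ribosomal proteins, encoded by separate genes, included genes that passed the test. Of 8 listed paralogs 7 were measured, and 6 had a difference below 0, against 43.4% of all genes. The 2 called lower were RPL22L1 and RPL39L. By probe set 2 of 10 were called lower, against 0.905% of all probe sets, and the gene list's median difference was -0.64. This list was chosen with earlier results of these data known.

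RPL22L1, the paralog of RPL22 whose transcript RPL22 protein represses in mice, read 7643 and 7058 on siRNA arrays 1 and 2 against 18997 on the scrambled array. Both siRNA arrays were low, at 40.2% and 37.2% of the scrambled signal (log2 difference -1.37 ± 0.20, SE; limma adjusted p = 0.0277). RPL22 itself was at 86.9% and 97.2% in its brightest probe set. RPL39L, a paralog of RPL39 best known from the testis, read 2443 and 2527 against 5790.0 on the scrambled array, or 42.2% and 43.6% (-1.20 ± 0.23; adjusted p = 0.0486). RPL39, which is not a member, was at 94.7% and 89.6% (adjusted p = 0.720). The differences between paralog and main gene were not themselves tested. The call of RPL22L1 was lost without the dim filter (adjusted p = 0.119), when the dim filter was raised to the 75th percentile (0.0572) and in a fit lacking the variance trend (0.152). That of RPL39L was lost in each of these too, with adjusted p up to 0.170, and with quantile normalization (0.0749), the doubled pseudocount (0.0505), robust moderation (0.0512) and without the brightest 1% of signals (0.0596).

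A further pair of paralogs was lower without passing, named after their values were seen. RPL7L1, related to an assembly factor of yeast ribosomes, read 9221 and 7718 against 17124 on the scrambled array (-1.02 ± 0.21; adjusted p = 0.0583), with a second probe set at 86.7% and 73.7%. RPS27L, a p53 target, read 19934 and 22111 against 32754 on the scrambled array (-0.64 ± 0.18; adjusted p = 0.109), and its 2 dimmer probe sets were lower as well. RPL26L1 (-0.14), RPL36AL (-0.038) and RPL10L (0.46) completed the list, with adjusted p of 0.592 or more. The start windows of RPL22, RPS27 and their paralogs, cut and marked as for the members, show where the pyrimidine run is kept.
RPL22 (chr1:6199581-6199610, minus strand): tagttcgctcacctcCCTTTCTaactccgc
RPL22L1 (chr3:170870181-170870210, minus strand): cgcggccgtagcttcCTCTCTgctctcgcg
RPS27 (chr1:153990747-153990776, plus strand): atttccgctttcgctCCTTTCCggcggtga
RPS27L (chr15:63157463-63157492, minus strand): aagttgatgccgagcgcagatcgcttgcag
RPL7L1 (chr6:42879601-42879630, plus strand): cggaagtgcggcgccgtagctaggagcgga
The run was present in RPL22L1 and at no annotated start of RPS27L or RPL7L1; it was present in 1 of the 6 paralogs with a promoter entry (16.7%).

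**Figure D4:**
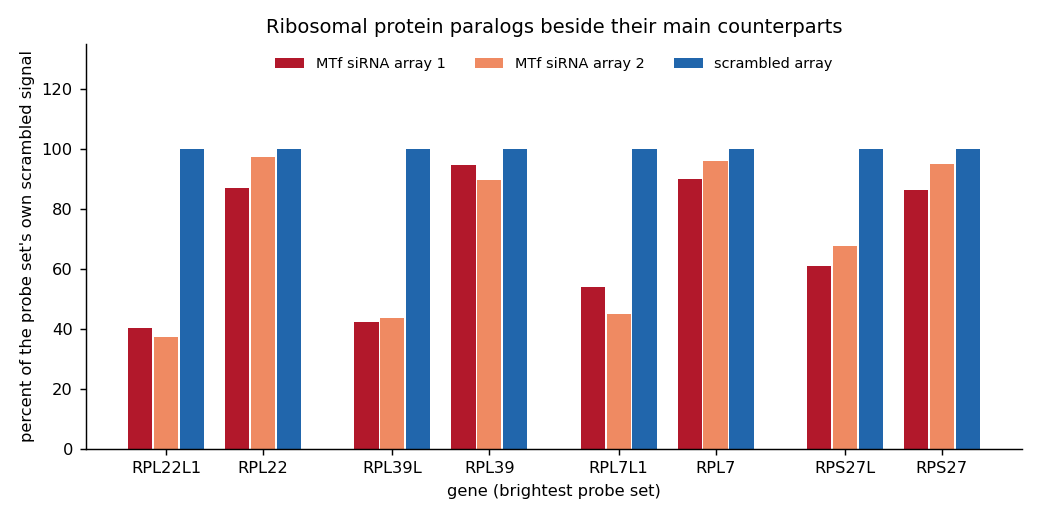
Signal of the brightest probe set of RPL22L1, RPL39L, RPL7L1 and RPS27L, each beside RPL22, RPL39, RPL7 or RPS27, on the siRNA arrays and the scrambled array, as a percentage of that probe set's scrambled signal (vertical axis from 0). The paralogs drawn stand between 37.2% and 67.5% on the siRNA arrays, and the main genes between 86.3% and 97.2%. RPL7L1 and RPS27L were chosen after their values were seen. The other measured paralogs, RPL26L1, RPL36AL and RPL10L, are not drawn, nor are the dimmer probe sets.

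The remaining genes of the pathway were described from 4 further lists, which were also chosen with earlier results of these data known. The other cytosolic ribosomal proteins (22 of 31 measured) had a median difference of -0.12 with 19 below 0, and 0 of 56 probe sets were called by limma (4 at an unadjusted p under 0.05); with quantile normalization the median was 0.0077. Translation initiation and elongation factors (41 genes) had a median of -0.061, or 0.045 with quantile normalization, with 0 of 120 probe sets called and 17 at an unadjusted p under 0.05. Such a p was found for 20.2% of all probe sets. Mitochondrial ribosomal proteins (74 genes) had a median of -0.11, or -0.056 with quantile normalization, and 2 of 123 probe sets (1.63%) were called lower, both of MRPS22, against 0.905% of all probe sets.

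MRPS22, a small-subunit protein of the mitochondrial ribosome, had 4 probe sets, all lower on both siRNA arrays. The second brightest read 6754 and 6718 on siRNA arrays 1 and 2 against 14218 on the scrambled array (-1.07 ± 0.20, SE; limma adjusted p = 0.0470), and the dimmest read 4310.3 and 3805 against 9240.3 (-1.18 ± 0.22; adjusted p = 0.0477). The other two, the brightest among them, were at 41.5% to 53.7% of their scrambled signal, with adjusted p of 0.0624 and 0.0642. Both calls were lost with quantile normalization (adjusted p = 0.0654 and 0.0677), and likewise without the dim filter, with the 75th percentile, without the trend and without the brightest 1% of signals.

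Ribosome biogenesis genes (43 of 44 measured) had the lowest median among these 4 lists, at -0.33, and it stayed below 0 with quantile normalization (-0.40) and with arrays centred (-0.50). Of the 43 genes 39 were below 0 (90.7%), against 43.4% of all genes. The list was chosen with earlier results of these data known. Set against 4575 of all 13595 genes, 37 of the 43 were below the scrambled array on both siRNA arrays. None of their 82 probe sets was called by limma (0, with 22 at an unadjusted p under 0.05, of which 21 were lower). Over all probe sets 20.2% had such a p, and 7.77% had it and were lower. The box C/D small nucleolar ribonucleoprotein gene NOP58 read 12515 and 14157 against 23986 on the scrambled array (adjusted p = 0.0707), and DKC1, the pseudouridine synthase of box H/ACA particles, read 7430 and 8116 against 13905 (adjusted p = 0.0786). Both were named after their values were seen, and the annotation of DKC1 probe sets also names small RNAs.

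**Figure D5:**
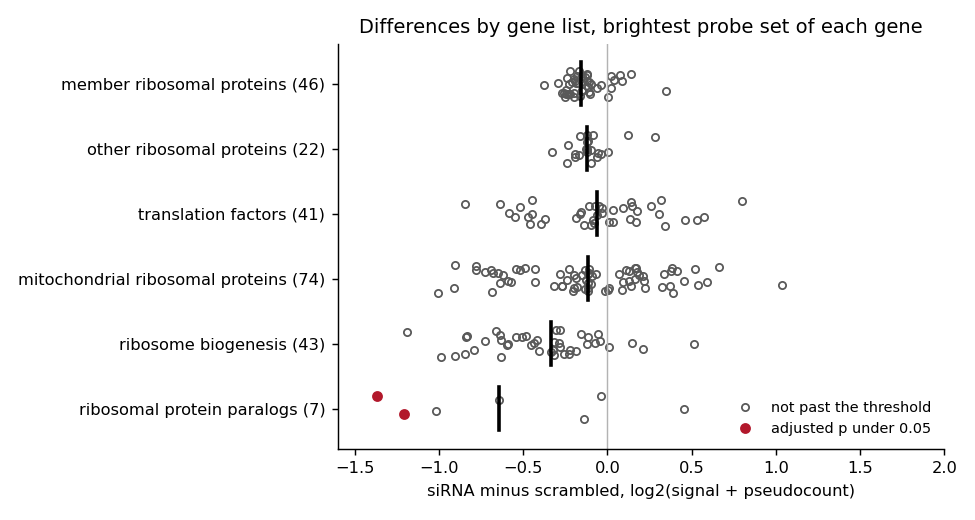
Difference of each gene's brightest probe set (horizontal axis, siRNA minus scrambled, log2 scale) in 6 gene lists, with the number of measured genes in brackets, black bars for medians and filled red points for genes with an adjusted p under 0.05. The median is -0.16 for member genes and -0.33 for biogenesis genes, and the 2 red points are RPL22L1 and RPL39L.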

How the data were processed

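The authors deposited 1 intensity per probe set and array on a linear scale, made with GCOS 1.3 per the submitters' processing notes. Trimming 2% at each end left means of 1000.12 and 1000.13 on the siRNA arrays and 1000.14 on the scrambled array; other settings: not given in the sources used here. From these values 62 control probe sets were left out, the pseudocount (47.4, the 25th percentile of signals) was added, log2 was taken, and 27306 probe sets above the median mean log2 value (7.74) were kept. A siRNA minus scrambled contrast was fitted across all kept probe sets with limma 3.58.1 in R 4.3.3 (lmFit, eBayes with a trend), with Benjamini-Hochberg adjustment and two-sided p. Each probe set has 1 residual degree of freedom, eBayes supplied a prior of 6.36, and the single scrambled array is taken to have the spread of the siRNA arrays. The script was tested on simulated data.

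Errors given as SE, and 95% intervals, come from this fit. Names come from the platform annotation, updated by Entrez identifier; values of a gene are those of its probe set with the highest mean. Promoters are RefSeq's, on GRCh38.p14. The number of arrays limits the precision. There were 0 value columns of other samples. Members and lists were chosen with earlier results of these data known. Named members are those past the threshold, the 5 highest and 5 lowest, those whose probe sets span over 1 on the log2 scale, the stalk genes and 10 with a known further role; from other lists, genes past the threshold. RPL7L1, RPS27L, NOP58 and DKC1 fall outside this rule and were chosen after their values were seen; the other paralogs are named to complete their list. Alternatives changed the pseudocount, filter, scaling, variance model, arrays and shared or bright probe sets.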

Additional observations from a re-analysis of the deposited data

Results flagged for a closer look

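The control probe sets for ribosomal RNA lie outside every comparison and stood apart on siRNA array 1, with a median ratio to the scrambled array of 3.76 over 6 probe sets, and of 1.06 on siRNA array 2. Of them, 3 probe sets for 1 of the ribosomal RNAs read 3167, 3614 and 2848 on siRNA array 1 and 755.9, 725.4 and 683.9 on siRNA array 2, against 902.3, 736.6 and 710.2 on the scrambled array. Those for the other ribosomal RNA disagreed in direction. They read 62.5, 5903.6 and 13376.5 on siRNA array 1 and 103.5, 3225.2 and 3878.4 on siRNA array 2, against 76.8, 2819 and 3129.9 on the scrambled array. Of the 103 ribosomal protein probe sets 82 read lower on siRNA array 1 than on siRNA array 2, and what part the one has in the other was not tested.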

How the results depend on the processing

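With arrays centred on their medians, 3.42% of all probe sets were called lower, and so were 10 of 103 for members, 7 of 56 for other ribosomal proteins, 4 of 10 for paralogs, 10 of 120 for translation factors, 8 of 82 for biogenesis genes and 8 of 123 for mitochondrial ribosomal proteins. The median difference was then -0.31 over member probe sets and -0.33 over member genes, with -0.15 for RPL11, -0.031 for RPL23, -0.086 for RPL29, -0.13 for RPL5 and -0.097 for RPL6, all turned below 0. With quantile normalization the medians were -0.035 and -0.028, RPL37 (0.0032), RPLP2 (0.0089), RPS3 (0.085) and RPS7 (0.0024) turned above 0, 1 translation factor probe set was called higher, and calls lower were 1 for paralogs and 0 for mitochondrial ribosomal proteins. Without the brightest 1% of signals 26 member probe sets were left, and the genes without one dropped out. The medians were then 0.059 by probe set and 0.031 over the remaining genes. In that fit 1 paralog and 0 mitochondrial ribosomal protein probe sets were called lower. Paralogs called lower numbered 1 with the pseudocount doubled and with robust moderation, and 0 with no filter, a filter at the 75th percentile or no trend. Mitochondrial ribosomal protein probe sets called lower numbered 1 with robust moderation, and 0 with no filter, the 75th percentile or no trend. RPL22L1 lost its call with no filter (adjusted p = 0.119), the 75th percentile (0.0572) and no trend (0.152). RPL39L had adjusted p between 0.0152 with arrays centred and 0.170 with no trend, and was past the threshold only as reported, with the pseudocount halved and with arrays centred. Member probe sets at least 2-fold higher numbered 0 with the pseudocount doubled, the 75th percentile, arrays centred, quantile normalization, or without probe sets naming several genes or ending in _x_at or _s_at; those at least 2-fold lower numbered 0 with the pseudocount doubled and 2 with no filter. Leaving out 1 siRNA array gives values with no test: 1 without siRNA array 1 and 3 without siRNA array 2 for 2-fold higher, and 2 and 1 for 2-fold lower. The member probe set median was -0.078 without siRNA array 1 and -0.19 without siRNA array 2, and the gene median -0.097 and -0.22. RPL11 was 0.10 without siRNA array 1 and -0.066 without siRNA array 2, and RPL5 0.080 and -0.00010. The scrambled array cannot be left out. Over all probe sets 571 were called, against 1 with no filter, 9 at the 75th percentile (6 higher and 3 lower), 1 with no trend, 1528 with arrays centred (594 higher and 934 lower), 357 with quantile normalization (203 and 154) and 283 without the brightest 1% (170 and 113). Causes of these shifts were not tested. Among single genes and probe sets, 309 values kept direction and side of the threshold, 21 lost and 7 gained a call, and 11 reversed. No paired analysis was possible because the scrambled group has 1 array, so the groups share fewer than 2 replicate numbers. The number of arrays limits the precision.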
